A study of Homo sapiens with 6 samples.

Results

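The genes described here are 10 chemokine ligands, taken by gene symbol from the 60843 genes of the deposited expression table: CXCL1, CXCL2, CXCL3, CXCL5, CXCL8, CXCL10, CXCL11, CCL2, CCL5 and CCL20. All 10 symbols were found once each. Total RNA of SW872-S cells, an established line of human liposarcoma labelled as connective tissue and grown in DMEM with serum and antibiotics, was sequenced in 3 libraries of a negative control (TP53INP2 NC, called NC) and 3 libraries of cells carrying a plasmid that overexpresses TP53INP2 (TP53INP2 OE, called TP53INP2_OE). TP53INP2 encodes a protein that shuttles between nucleus and cytoplasm and helps to form autophagosomes, and the study's title places it in mitophagy and the control of YAP in dedifferentiated liposarcoma. The labels do not give the plasmid's promoter, the control vector, the duration of expression, the number of clones or whether libraries came from separate cultures, so the spread behind each p-value is that between libraries and may be technical.

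Chemokines are small secreted proteins that guide the migration of leukocytes through G protein-coupled receptors. CXC members with a glutamate-leucine-arginine (ELR) motif before the first cysteines, such as CXCL1 and CXCL8, act on CXCR1 or CXCR2 and draw neutrophils, whereas CXCL10 and CXCL11 lack the motif, are induced by interferon and act on CXCR3 of T and NK cells. The CC members CCL2, CCL5 and CCL20 draw monocytes, T cells and CCR6-bearing cells, respectively. Many of these genes are transcribed under NF-kB, AP-1 and interferon regulatory factors, and many ELR chemokine mRNAs are short-lived through AU-rich elements.

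TP53INP2 itself was at 9.45 to 10.6 FPKM (fragments per kilobase of gene length, scaled to library size) in NC and at 18.9 to 27.1 FPKM in TP53INP2_OE, higher in every TP53INP2_OE library. Libraries held 16038062 to 17607612 reads assigned to genes. Reads of TP53INP2 from the plasmid and from the gene cannot be told apart. Of the 8 markers listed for mesenchymal or liposarcoma cells, VIM was at 731 ± 17.1 FPKM in NC (SD, n = 3) and COL1A1 at 121 ± 5.13, while COL1A2 was at most 0.017 FPKM in any library and THY1 was at 0.174 ± 0.0447. The summed level of 7 leukocyte markers was 0.2 to 0.534 FPKM in NC and 0.239 to 0.515 in TP53INP2_OE, and PTPRC, the pan-leukocyte marker, had at most 1 read in a library, so leukocyte markers were near 0 in both groups. The summed level of the mesenchymal or liposarcoma markers was 913 to 955 FPKM in NC and 893 to 929 in TP53INP2_OE, with HMGA2 and MDM2 rising and COL1A1, PDGFRB and CDK4 falling. The 4 epithelial markers summed to 81.2 to 83.2 FPKM in NC and 63.6 to 75.5 in TP53INP2_OE, with KRT8 and KRT18 falling. EPCAM and CDH1 were at most 0.162 and 0.0201 FPKM in any library. The 4 endothelial markers summed to 46.4 to 51.0 and 46.0 to 47.6, with TEK rising and CDH5 falling. Of these calls only that of COL1A1 held after the correction for GC content. The part of these markers in the chemokine results was not tested. In RNA from bulk cells, fewer expressing cells and less RNA per cell cannot be told apart.

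**Figure D1:**
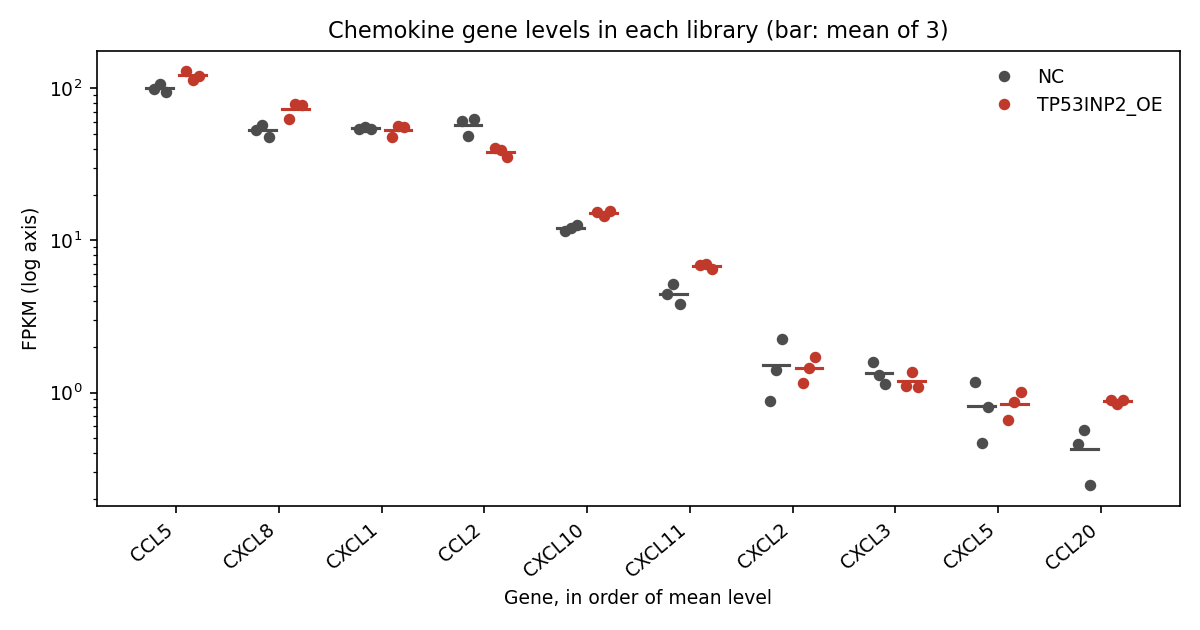
Level of each of the 10 chemokine genes (FPKM, log axis) in every NC and TP53INP2_OE library, ordered by mean level; short bars are means of 3. CCL5 is highest at 94.3 to 129 FPKM, and the 4 genes at the right lie at or below 2.25 FPKM in all 6 libraries.

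CCL5, CXCL8, CXCL1 and CCL2 together held 91.5% to 93.0% of the summed FPKM of the 10 genes in every library. In NC, CCL5 stood alone at the top of the FPKM order (94.3 to 106). CCL2 (48.2 to 62.6), CXCL1 (53.6 to 55.6) and CXCL8 (47.8 to 57.5) overlapped with each other. In TP53INP2_OE the same 3 genes no longer overlapped, with CXCL8 at 63.1 to 78.7, CXCL1 at 47.8 to 56.2 and CCL2 at 35.1 to 40.2 FPKM. CXCL10 and CXCL11 followed at means of 12.1 and 4.48 FPKM in NC, each apart from its neighbours in the order. CXCL2, CXCL3, CXCL5 and CCL20 formed the lowest level, at most 2.25 FPKM, where neighbours overlapped in NC. Of the summed FPKM of the 10 genes, the mean share of CCL5 was 35.1% in NC and 38.9% in TP53INP2_OE, that of CXCL8 18.5% and 23.4%, and that of CCL2 20.1% and 12.2%. FPKM divides by the deposited gene length, which for CCL2 is 1986 bases against 741 in its longest coding transcript. For CCL5 these lengths are 1499 and 1365 bases, and for CXCL3 2219 and 1075. The order of the genes and their shares therefore hold for FPKM only and can differ per transcript length.

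In the comparison of TP53INP2_OE with NC, 5 of the 10 genes rose (CXCL8, CXCL10, CXCL11, CCL5 and CCL20), 1 fell (CCL2) and 4 did not pass the test (CXCL1, CXCL2, CXCL3 and CXCL5). The test was limma on log2(FPKM + 1) over the 14791 genes whose mean reached 0.5 FPKM, with Benjamini-Hochberg adjusted p below 0.05 as the threshold, and all 10 genes entered it. Of all tested genes, 16.4% rose and 18.6% fell. The median log2 fold change was 0.15 over the 10 genes and 0.0032 over all tested genes. The 3 TP53INP2_OE libraries lay above all NC libraries for the 5 genes that rose, against 25.2% of tested genes, and below them for CCL2, against 25.6%. The genes were chosen with earlier results of these libraries known, so their counts are a description.

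The log2 fold changes of all genes in these libraries followed the GC content of their transcripts, and this bears on most of the 10. Protein-coding genes were divided into 10 groups by GC content, and the median log2 fold change ran from 0.25 in the lowest group (30.2% to 38.7% GC) to -0.33 in the highest. CXCL8, CXCL10, CXCL11, CXCL5 and CCL20 lie in that lowest group, at 33.4% to 37.6% GC, so a log2 fold change of 0.25 is the middle of their group. After each library was corrected for GC content and gene length, 1 of the 10 genes rose (CCL5) and 1 fell (CCL2), against 4.41% and 5.61% of 14548 genes, and the median over the 10 went to 0.033 (0.00015 over all). Whether the GC trend is technical or biological was not tested.

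**Figure D2:**
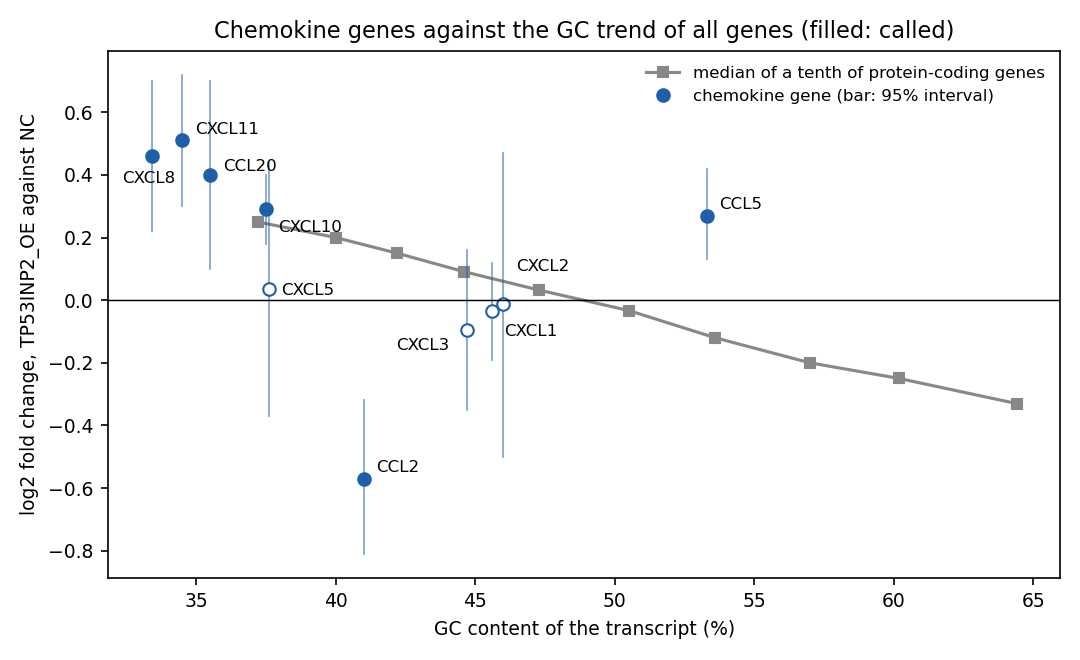
log2 fold change of the 10 chemokine genes (circles, filled where adjusted p was below 0.05, bars are 95% intervals) against transcript GC content (%), with the median of each of 10 GC groups of protein-coding genes (squares). CXCL10 lies near the median of its GC group, CXCL5 below it, CXCL8, CXCL11 and CCL20 above it, CCL5 far above and CCL2 far below. The intervals of CXCL5, CXCL8, CXCL10 and CCL20 include the median of their group (0.25), and that of CXCL11 does not.

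Among the ELR chemokines, CXCL8 changed and its 4 relatives did not pass the test. CXCL8 (interleukin 8, the main neutrophil attractant in humans; ENSG00000169429, chromosome 4, 73740541 to 73743716, plus strand, GRCh38, protein-coding) was at 53.1, 57.5 and 47.8 FPKM in NC replicates 1 to 3 and at 63.1, 78.7 and 77.2 FPKM in TP53INP2_OE replicates 1 to 3. The groups did not overlap, and TP53INP2_OE replicate 1 was nearest to NC. The means were 52.8 ± 4.83 and 73.0 ± 8.63 FPKM (SD, n = 3 each), a ratio of 1.38, and limma gave a log2 fold change of 0.46 (SE 0.10, adjusted p = 0.0143). Permuting the 6 values gave an exact two-sided p of 0.1, the smallest possible for 3 libraries against 3, as it did for the other 5 genes whose groups did not overlap. After the GC and length correction the log2 fold change of CXCL8 was 0.26 (95% interval 0.045 to 0.48) and no longer passed (limma, adjusted p = 0.124).

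CXCL1 (GRO-alpha, a CXCR2 ligand; ENSG00000163739, chromosome 4, 73869393 to 73871308, plus strand) was as abundant as CXCL8 in NC, at 54.1, 55.6 and 53.6 FPKM, and was at 47.8, 56.2 and 55.8 FPKM in TP53INP2_OE. The groups overlapped, with TP53INP2_OE replicate 1 below every NC library. Its log2 fold change was -0.035 with a 95% interval of -0.19 to 0.12 (limma, adjusted p = 0.719), and 1053 to 1340 reads per library lay behind these values. The ratio of CXCL8 to CXCL1 within a library was 0.981, 1.03 and 0.892 in NC and 1.32, 1.40 and 1.38 in TP53INP2_OE. All TP53INP2_OE ratios were above all NC ratios (0.969 ± 0.0718 against 1.37 ± 0.0423, SD, n = 3; exact two-sided permutation p = 0.1). GC content differs between these genes, at 33.4% for CXCL8 and 45.6% for CXCL1, and its part in the ratio was not tested.

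The close paralogs CXCL2 (chromosome 4, 74097040 to 74099196, minus strand) and CXCL3 (chromosome 4, 74036589 to 74038807, minus strand), also CXCR2 ligands, were expressed far below CXCL1. CXCL2 was at 0.878, 1.41 and 2.25 FPKM in NC and 1.15, 1.46 and 1.72 FPKM in TP53INP2_OE, with NC holding both the lowest and the highest value. CXCL3 was at 1.58, 1.30 and 1.14 FPKM in NC and 1.11, 1.36 and 1.08 FPKM in TP53INP2_OE. Neither passed (log2 fold change -0.012, interval -0.50 to 0.47, and -0.094, interval -0.35 to 0.16). CXCL5 (chromosome 4, 73995642 to 73998677, minus strand), a further CXCR2 ligand, was at 1.18, 0.464 and 0.806 FPKM in NC and 0.660, 0.861 and 1.01 FPKM in TP53INP2_OE (log2 fold change 0.035, interval -0.37 to 0.44). These 3 genes had 20 to 57 reads per library, so their intervals are wider than that of CXCL1. CXCL1, CXCL2 and CXCL3 share stretches of sequence: of the 50-base windows of the CXCL2 transcript, 5.13% occur in CXCL1 transcripts and 4.62% in CXCL3 transcripts. The sources used here do not say how reads from such stretches were assigned, so the low values of CXCL2 and CXCL3 are uncertain.

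**Figure D3:**
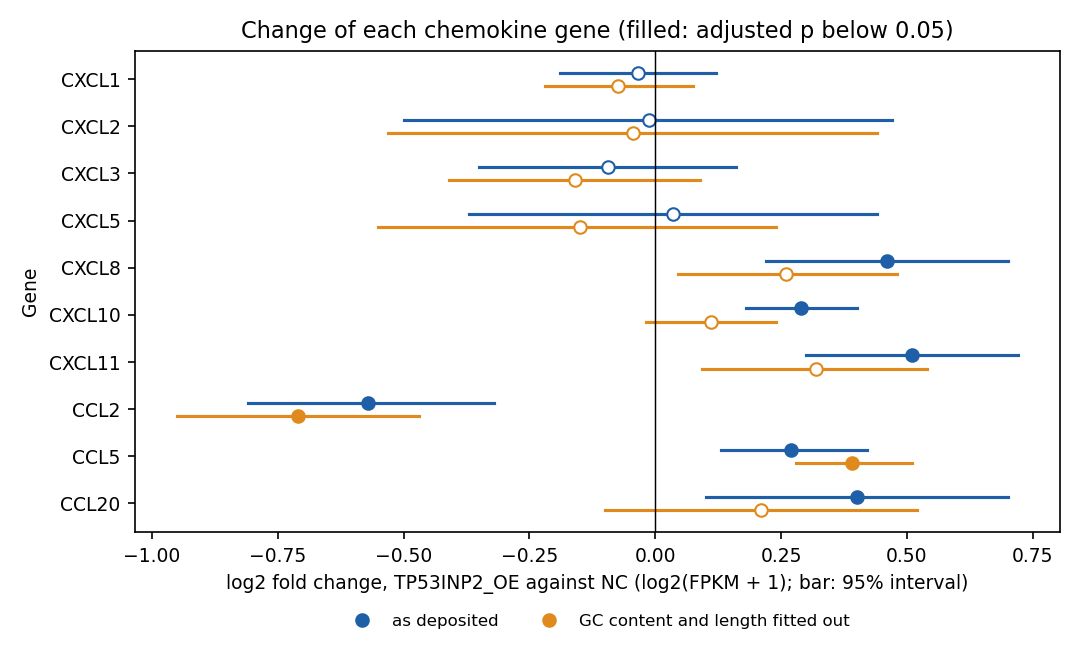
log2 fold change of each chemokine gene in TP53INP2_OE against NC on the log2(FPKM + 1) scale, as deposited (blue) and after the GC and length correction (orange), with 95% intervals; filled circles passed the test. CXCL8, CXCL10, CXCL11 and CCL20 move toward 0 after the correction, and CCL2 (-0.57 to -0.71) and CCL5 (0.27 to 0.39) move away from it.

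The interferon-inducible CXCR3 ligands CXCL10 and CXCL11 both rose. CXCL10 (ENSG00000169245, chromosome 4, 76021118 to 76023497, minus strand) was at 11.6, 12.1 and 12.7 FPKM in NC and at 15.4, 14.4 and 15.5 FPKM in TP53INP2_OE, a ratio of means of 1.24 (limma, adjusted p = 0.00564). CXCL11 (ENSG00000169248, chromosome 4, 76033682 to 76041415, minus strand) was at 4.44, 5.14 and 3.84 FPKM in NC and at 6.87, 7.0 and 6.44 FPKM in TP53INP2_OE, a ratio of 1.51 (adjusted p = 0.00696). Both genes kept a gap between the groups, on 223 to 295 reads per library for CXCL10 and 122 to 214 for CXCL11. The ratio of CXCL10 to CXCL11 was 2.76 ± 0.482 in NC and 2.23 ± 0.171 in TP53INP2_OE, and these overlapped (exact two-sided permutation p = 0.2), so a larger change of CXCL11 was not shown. The third gene of this group, CXCL9, lies beside them and had at most 2 reads in any library. After the GC and length correction CXCL10 was at 0.11 (interval -0.018 to 0.24, limma adjusted p = 0.244) and CXCL11 at 0.32 (interval 0.093 to 0.54, adjusted p = 0.0848). ART3, which overlaps both genes on the opposite strand, was at 0.0468 FPKM in NC and 0 in TP53INP2_OE.

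The CC chemokines CCL2 and CCL5 moved in opposite directions. CCL2 (MCP-1, the main monocyte attractant; ENSG00000108691, chromosome 17, 34255218 to 34257203, plus strand) was at 60.7, 48.2 and 62.6 FPKM in NC and at 40.2, 39.1 and 35.1 FPKM in TP53INP2_OE. All TP53INP2_OE libraries were lower, and NC replicate 2 was nearest to them. The means were 57.2 ± 7.80 and 38.1 ± 2.69 FPKM (SD, n = 3 each), a ratio of 0.667, and limma gave a log2 fold change of -0.57 (SE 0.10, adjusted p = 0.00813). CCL5 (RANTES, an attractant of T cells and monocytes; ENSG00000271503, chromosome 17, 35871491 to 35880793, minus strand) was at 99.5, 106 and 94.3 FPKM in NC and at 129, 114 and 121 FPKM in TP53INP2_OE. All TP53INP2_OE libraries were higher, with means of 100 ± 5.96 and 121 ± 7.42 FPKM, a ratio of 1.21 and a log2 fold change of 0.27 (limma, adjusted p = 0.0145). CCL5 did not pass without NC replicate 1 (adjusted p = 0.0515), while CCL2 passed under all 16 alternatives run.

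Both changes ran against the GC trend. CCL2 has a transcript GC content of 41.0%, in a group of genes with a median log2 fold change of 0.20, and CCL5 one of 53.3%, in a group with a median of -0.12. After the GC and length correction CCL2 was at -0.71 (interval -0.95 to -0.47, limma adjusted p = 0.0134) and CCL5 at 0.39 (interval 0.28 to 0.51, adjusted p = 0.0104). The ratio of CCL5 to CCL2 within a library was 1.64, 2.20 and 1.51 in NC and 3.21, 2.91 and 3.44 in TP53INP2_OE (1.78 ± 0.369 against 3.18 ± 0.263, SD, n = 3; exact two-sided permutation p = 0.1). Every TP53INP2_OE ratio was above every NC ratio. With CCL5 higher and CCL2 lower in all TP53INP2_OE libraries this had to be so, and the ratio and its p are no separate result. The size of a ratio depends on the gene lengths used for FPKM. These values rest on 1130 to 2216 reads per library for CCL2 and 2432 to 3124 for CCL5. A long non-coding RNA, AC015849.1, overlaps CCL5 on the opposite strand and was at 0.0248 and 0.0272 FPKM.

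**Figure D4:**
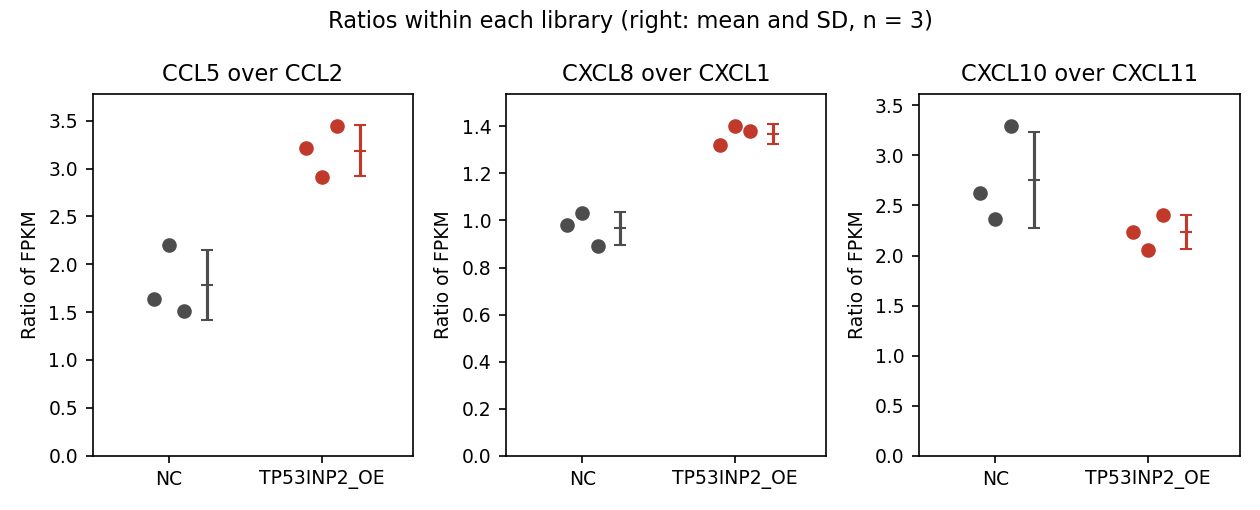
Ratio of FPKM between pairs of chemokine genes within each library, with the mean and SD of 3 beside the points. CCL5 over CCL2 (1.51 to 2.20 in NC, 2.91 to 3.44 in TP53INP2_OE) and CXCL8 over CXCL1 do not overlap between groups, and CXCL10 over CXCL11 does. For CCL5 over CCL2 this follows from the levels of both genes, which lie apart in opposite directions.

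CCL20 (a CCR6 ligand; ENSG00000115009, chromosome 2, 227805739 to 227817564, plus strand) had the lowest mean of the 10 over the 6 libraries, at 0.462, 0.567 and 0.246 FPKM in NC and 0.892, 0.840 and 0.890 FPKM in TP53INP2_OE. The groups were apart, on 7 to 16 reads per library in NC and 23 in each TP53INP2_OE library. The ratio of means was 2.06, while the log2 fold change on log2(FPKM + 1), which understates changes of low genes, was 0.40. It passed narrowly (limma, adjusted p = 0.0459). The call was lost under 14 of 15 alternatives, the one that kept it being voom on the recovered reads (adjusted p = 0.0366), and after the GC and length correction it was 0.21 (adjusted p = 0.362).

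Sequence around the starts was compared for the 8 members matched in RefSeq promoter sequences (GRCh38.p14), over the 250 bases before the start. Searched on both strands were GGAATTTCC, an NF-kB-type core, the NF-kB consensus by name, which can overlap the first, TGANTCA, the AP-1 site, and GAAANNGAA, an interferon regulatory factor element. GGAATTTCC was found upstream of 7 of 7 CXC members, and in 0.428% of 27305 promoters of this length. CXCL1, CXCL2 and CXCL3 are close paralogs, so their matches are not separate cases to set against that share. CCL20, the only CC member searched, had no GGAATTTCC match. The consensus was found in 9.57% of promoters, TGANTCA in 6.6% and GAAANNGAA in 7.06%. Each of the 8 members except CXCL8 had a match to the consensus, and the NF-kB match of CXCL8 is GGAATTTCC alone. Of the CXC members that rose, CXCL8 and CXCL11 each had a TGANTCA match, at -137 to -131 and -87 to -81 relative to the start, and CXCL10 had a GAAANNGAA match at -221 to -213. CXCL1 and CXCL5, which did not pass, had only NF-kB matches, as had CCL20, which rose. CXCL2 and CXCL3, which did not pass either, each had a GAAANNGAA match, so that match was found on both sides of the test. The calls of CXCL8, CXCL10, CXCL11 and CCL20 were lost after the GC and length correction. A link between matches and changes was not tested. The RefSeq start lies 5345 bases from the gene start in the table for CXCL11 and 8103 bases for CCL20. The 4 most expressed CXC members are shown 5′ to 3′ on the strand of the gene, with all matches in capitals, so that the shared core and its different surroundings can be seen. They lie at chr4:73869143-73869392 (plus strand), chr4:73740319-73740568 (plus), chr4:76023498-76023747 (minus) and chr4:76036071-76036320 (minus).
CXCL1: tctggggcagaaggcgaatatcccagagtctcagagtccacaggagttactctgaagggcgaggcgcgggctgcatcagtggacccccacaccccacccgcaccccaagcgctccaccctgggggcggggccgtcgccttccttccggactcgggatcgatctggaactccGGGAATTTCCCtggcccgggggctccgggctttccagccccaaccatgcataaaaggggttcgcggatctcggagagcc
CXCL8: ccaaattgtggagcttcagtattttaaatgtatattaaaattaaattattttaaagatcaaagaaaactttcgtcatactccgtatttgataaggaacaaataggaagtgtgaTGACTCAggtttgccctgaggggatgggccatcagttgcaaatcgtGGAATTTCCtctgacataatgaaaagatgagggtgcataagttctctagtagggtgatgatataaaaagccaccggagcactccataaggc
CXCL10: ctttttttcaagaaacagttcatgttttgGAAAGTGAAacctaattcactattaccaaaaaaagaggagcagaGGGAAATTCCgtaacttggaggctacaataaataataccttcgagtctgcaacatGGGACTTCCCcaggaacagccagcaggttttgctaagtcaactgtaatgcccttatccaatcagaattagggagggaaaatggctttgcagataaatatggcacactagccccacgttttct
CXCL11: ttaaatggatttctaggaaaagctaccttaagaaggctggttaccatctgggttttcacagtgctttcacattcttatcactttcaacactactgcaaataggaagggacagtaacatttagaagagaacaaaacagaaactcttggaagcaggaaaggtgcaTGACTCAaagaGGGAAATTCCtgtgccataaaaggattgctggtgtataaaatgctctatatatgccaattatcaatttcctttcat

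A match is a run of letters in this window and was not measured as a bound site. CXCL1 (GGGAATTTCCC at -79 to -69) and CXCL8 (GGAATTTCC at -91 to -83) carry the same core at a similar distance, and CXCL10 and CXCL11 carry it on the other strand.

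**Figure D5:**
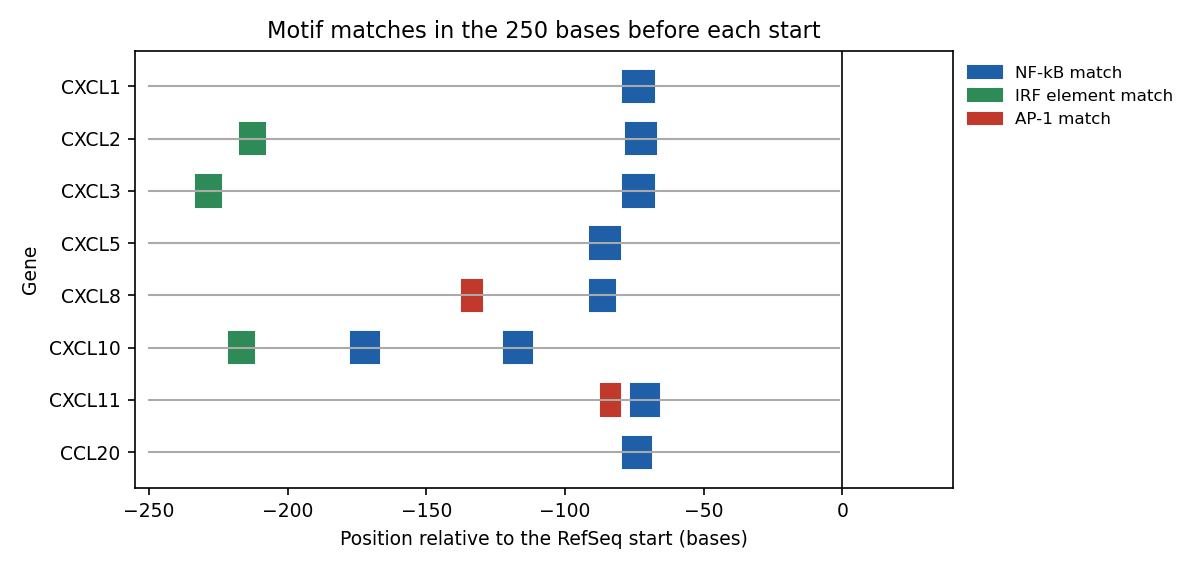
Positions of motif matches in the 250 bases before the RefSeq start of 8 chemokine genes (x axis in bases, start at the right; overlapping matches are merged). NF-kB matches lie between -91 and -67 in each gene shown, CXCL10 excepted (-177 to -168 and -122 to -113), and AP-1 matches are in CXCL8 and CXCL11.

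The AU-rich nonamer TTATTTATT (written as DNA), a binding site of mRNA decay factors, occurred in 4 of the 10 longest coding transcripts from GENCODE 29, all of ELR members: 5 times in CXCL2, 3 times in CXCL1 and once each in CXCL3 and CXCL8. At least 1 copy was found in 10.1% of 11261 expressed coding genes, and 4 or more in 0.311%. Of 9 tested regulators of such decay, 2 rose and 4 fell (median log2 fold change -0.14), against 16.4% and 18.6% of all tested genes. After the GC and length correction 2 rose and 2 fell, against 4.41% and 5.61%. Of those that rose, ZFP36L2 was called both times, TIA1 only before the correction and ZC3H12A only after it. KHSRP, a decay-promoting RNA-binding protein, fell from 101 ± 4.62 to 73.4 ± 3.12 FPKM, and HNRNPD (AUF1) fell from 38.0 ± 0.672 to 30.9 ± 1.52. ZFP36L2 rose from 59.4 ± 3.68 to 80.7 ± 4.77 FPKM, and ZFP36 (tristetraprolin) fell from 7.57 ± 0.530 to 5.33 ± 1.07. KHSRP, HNRNPD and ZFP36L2 kept their calls in 16 of 16 alternatives, with the log2 fold change of KHSRP going from -0.46 to -0.23 and that of HNRNPD from -0.29 to -0.45 under the correction, and ZFP36 lost its call in 9.

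Of 20 NF-kB and AP-1 factors and inhibitors, all tested, 3 rose and 9 fell (median -0.12), against 16.4% and 18.6% of all tested genes. After GC and length correction 3 rose and 2 fell, against 4.41% and 5.61%. Of those that rose, TNFAIP3 and NFKBIZ were called both times, CHUK only before the correction and FOSL1 only after it. Of those that fell, JUN and FOSL2 were called both times. The NF-kB genes RELB, NFKB2, NFKBIB, NFKBIE and IKBKG, and JUNB and JUND, were called only before the correction. TNFAIP3 (A20), an NF-kB target that restrains the pathway, rose from 42.0 ± 4.88 to 59.2 ± 3.34 FPKM (log2 fold change 0.49, limma adjusted p = 0.00653). NFKBIZ, an inducible nuclear cofactor of NF-kB, rose from 7.83 ± 0.188 to 11.2 ± 1.04 FPKM. The AP-1 subunit genes JUN and JUNB fell by 0.38 and 0.53 on the log2 scale, JUN from 135 ± 6.16 to 104 ± 2.91 FPKM. After the correction JUN was at -0.19 and still passed, and JUNB did not pass (log2 fold change -0.20, limma adjusted p = 0.157). TNFAIP3 and NFKBIZ stayed close to their uncorrected values, at 0.50 and 0.41. Of 8 IRF and STAT genes, all tested, 2 fell, against 18.6% of all tested genes. IRF3, which acts downstream of RNA sensors, fell by 0.52 on the log2 scale (16.1 ± 0.253 to 10.9 ± 1.11 FPKM), and IRF1, an interferon-induced activator, fell by 0.20. IRF1 lost its call in 5 of 16 alternatives. After the correction IRF3 alone passed among these 8 (-0.25, limma adjusted p = 0.0356). STAT3, the most expressed of the 8, was at 17.3 ± 0.440 and 16.5 ± 0.137 FPKM.

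The other chemokine ligands were low. Of 37 listed, 36 were in the table. Of these, 19 had no read in any library, 6 were tested, 2 rose and 1 fell (median -0.11), against 16.4% and 18.6% of all tested genes. None reached a mean of 5 FPKM over the 6 libraries, a level that 6 of the 10 genes passed. CCL3 (MIP-1 alpha, an attractant of monocytes) rose from 0.684 ± 0.0633 to 1.35 ± 0.0468 FPKM on 16 to 36 reads per library (log2 fold change 0.48, limma adjusted p = 0.00768) and held in 15 of 15 alternatives. CCL3 has near-identical copies, of which CCL3L3 was listed at 0, so its level is uncertain. CCL7 (MCP-3), a relative of CCL2 on chromosome 17, fell from 0.927 ± 0.404 to 0.279 ± 0.0618 FPKM on 3 to 20 reads (adjusted p = 0.0455) and lost its call in 7 of 14 alternatives. CCL28, a mucosal chemokine and the highest of these, rose from 4.03 ± 0.453 to 5.74 ± 0.760 FPKM and lost its call in 6 of 15 alternatives, the GC and length correction among them (adjusted p = 0.153).

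Few receptor genes were expressed. Of 23 receptor genes, 8 had no read in any library, among them CXCR1 and CXCR2, which bind CXCL8, and 2 were tested. CCRL2, a non-signalling chemerin-binding receptor, rose from 1.75 ± 0.244 to 2.75 ± 0.421 FPKM (limma, adjusted p = 0.0206) and lost its call in 7 of 15 alternatives. CCR10, the receptor of CCL28, had means of 2.26 ± 0.312 and 1.92 ± 0.104 FPKM and missed the threshold (adjusted p = 0.224).

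By position, 7 of the 10 genes fall into a pair of clusters on chromosome 4. The interval from CXCL8 to CXCL2 (73740541 to 74099196, 359 kb) holds 18 genes of the table, 9 of them protein-coding, and the 5 with a mean of at least 0.5 FPKM were the ELR members themselves. CXCL6, PF4V1 and PPBP, which lie between them, had no read in any library, and PF4 had at most 1. The interval from CXCL9 to CXCL11 (76001275 to 76041415) holds 4 genes, of which CXCL10 and CXCL11 passed 0.5 FPKM. Within the first interval CXCL8, at one end, was the only one of the 5 expressed genes that rose. It has the lowest GC content of the 5 (33.4%) and no longer passed after the GC and length correction (limma, adjusted p = 0.124). CXCL2, CXCL3 and CXCL5 rest on 20 to 57 reads per library, and the interval of CXCL2 (-0.50 to 0.47) includes the 0.46 of CXCL8. A part of position was not tested.

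The genes whose centred log2(FPKM + 1) profile over the 6 libraries was nearest to that of CXCL8 were PLOD2, AL390728.6, COMMD8, NAMPT and MAPK6, at Euclidean distances of 0.12 to 0.153 among 7565 genes compared. CXCL8 itself had an SD of 0.286 over these libraries on that scale. PLOD2 (a collagen lysyl hydroxylase) was at 58.7 ± 3.22 and 84.2 ± 7.71 FPKM, and NAMPT (an NAD-synthesis enzyme) at 27.1 ± 1.77 and 37.3 ± 2.22 FPKM in NC and TP53INP2_OE. All 5 rose, and with 2 groups of 3 libraries a likeness of this kind cannot be told apart from a shared difference between the groups. Like CXCL8, the 5 are low in GC content (27.8% to 38.1%). COMMD8, NAMPT and MAPK6 lost their call after the GC and length correction. The part of GC content in this likeness was not tested.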

How the data were processed

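The authors deposited 1 table of FPKM values with gene name, position, length and type, per the file headers. Bowtie 0.12.2 and 2 builds, GRCh38 and mm8, appear in the submitters' processing notes with no role stated, and the gene counter, strand setting and filters are not given in the sources used here. Of the gene IDs, 96.2% were in GENCODE 29 (GRCh38), so positions are given on GRCh38. FPKM times gene length came in whole multiples for 100% of values above 0 (tolerance 0.01) and gave the reads behind each value.

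Groups came from sample titles. Genes whose mean reached 0.5 FPKM were compared as log2(FPKM + 1), which understates changes of low genes, with limma 3.58.1 in R 4.3.3 (empirical Bayes with trend, Benjamini-Hochberg, threshold 0.05). The fit was tested on simulated counts that held no GC trend, so that test cannot speak to calls that depend on the trend. The GC and length correction subtracted natural splines (5 degrees of freedom each) of GC content (longest coding transcript) and log2 gene length from each library. Other alternatives were a pseudocount of 0.1, no filter, a mean of at least 5 FPKM, TPM, quantile normalization, voom on recovered reads, a replicate block, and leaving out each library. No 2 libraries of a group agreed within sampling noise (chi-square per degree of freedom 2.48 to 4.6).

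The 10 genes, the lists and the tests were chosen with earlier results of these data known. Named are the 10 genes, up to 4 called members with the largest change and the highest member of each list, expressed genes of the chromosome 4 clusters, and the 5 genes nearest to CXCL8 that are on no list. THY1, COL1A2, PTPRC, CXCL9, EPCAM, CDH1, MDM2, PECAM1, VWF, TIA1, ZC3H12A, CHUK, FOSL1, FOSL2, JUND, RELB, NFKB2, NFKBIB, NFKBIE, IKBKG, ADAM17, MMP9, ANPEP, CTSL, CCR10, CXCR1, CXCR2, CXCL6, PF4V1, PPBP, PF4, CCL3L3, ART3 and AC015849.1 were named after their values were seen. The result of 1 further gene that this rule names is not reported here.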

Additional observations from a re-analysis of the deposited data

How the results depend on the processing

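The 1 falling gene, CCL2, was called under all 16 alternatives run. The number of the 10 genes that rose, 5, went to 1 with the GC and length correction, to 1 with this correction and the replicate block together, and to 1 when GC content was taken from the longest transcript of any type, an alternative chosen after seeing the data. With 1 library left out it was 3 to 4, with 3 without NC replicate 1. The number of called genes, 5183, went to 1458, 642 and 1514 under these 3 corrections and ranged from 3265 to 4808 with 1 library left out. The cause was not tested. CXCL1, CXCL2 and CXCL5, which did not pass, changed sign: CXCL1 to 0.0044 with quantile normalization, CXCL2 to 0.016 with TPM, 0.0089 with a pseudocount of 0.1 and 0.0022 with voom, and CXCL5 to -0.15 with each of the 3 corrections. With 1 library left out they ranged from -0.075 to 0.04, from -0.20 to 0.19 and from -0.11 to 0.18. With the replicate block 4 of the 10 genes rose, CCL20 being lost (limma, adjusted p = 0.0885), and 4396 genes were called. Same-numbered libraries had deviations correlated at 0.017, 0.012 and 0.011, and not every library correlated best with its own number, so the numbers were not taken as pairs. CXCL2, CXCL3, CXCL5 and CCL20 rest on 7 to 57 reads per library, which limits what can be seen.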

Other observations

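Proteases that trim or activate chemokines were also looked at. Of 11 listed, 9 were tested, 3 rose (MMP1, ADAM10 and ADAM17) and 2 fell, against 16.4% and 18.6% of all tested genes. After the GC and length correction 1 fell and 3 others rose (MMP9, ANPEP and CTSL), against 5.61% and 4.41%. None of these 3 was called before the correction. MMP14, a membrane-bound metalloprotease and the most expressed of them, fell from 283 ± 12.6 to 220 ± 13.6 FPKM (SD, n = 3 each; limma, adjusted p = 0.00495), and MMP2, which it activates, fell from 17.9 ± 1.31 to 14.5 ± 1.14. ADAM10, which sheds membrane-bound chemokines, rose from 12.5 ± 0.437 to 15.6 ± 0.960 FPKM, and MMP1 from 10.6 ± 0.731 to 12.7 ± 0.753. After the GC and length correction MMP14 went from a log2 fold change of -0.37 to -0.14 and passed narrowly (limma, adjusted p = 0.0480), but not with the replicate block added (0.107) or with GC content from the longest transcript of any type (0.0523). MMP2, ADAM10 and MMP1 did not pass after the correction.

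The 4 endothelial markers differed in level in these liposarcoma cells. CDH5 (VE-cadherin) fell from 32.3 ± 2.46 FPKM in NC to 27.8 ± 0.723 in TP53INP2_OE, and TEK (TIE2) rose from 11.5 ± 0.737 to 14.1 ± 0.0682. Both calls (limma, adjusted p = 0.0323 and 0.0081) were lost after the GC and length correction (0.349 and 0.0573). PECAM1 was lower, at 3.7 ± 0.226 and 3.96 ± 0.154 FPKM, and VWF was at only 0.699 ± 0.0355 and 0.813 ± 0.0146. Keratin genes KRT18 and KRT8 were at 74.4 ± 1.31 and 8.01 ± 0.251 FPKM in NC, with the epithelial markers EPCAM and CDH1 near 0, while the adipocyte markers ADIPOQ, LEP and FABP4 had no read in any library. PLIN1, the highest of the 4 adipocyte markers, was at most 0.123 FPKM, and CD14, the highest of the leukocyte markers, at most 0.374 FPKM.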
